A study of Mus musculus with 12 samples.

Results

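The genes described here are 30 genes of committed and newly formed oligodendrocytes, chosen by name for this stage and not by a measured threshold, out of 35675 genes to which transcripts were assigned. Earlier results of these data were known when the 30 genes were chosen, so agreement with those is no independent support. All 30 passed the count filter that kept 13456 genes. Oligodendrocytes, the glia that wrap axons of the central nervous system in myelin, arise from dividing precursors through a short committed and newly formed stage before they turn on the genes of myelin at full strength. Genes of that intermediate stage are best known as markers. Gpr17 and Bmp4 mark committed precursors, Enpp6, Bcas1, Tns3 and Itpr2 mark newly formed cells, and Fyn is a kinase that drives the change in cell shape. Most of these genes are switched down again as a cell matures, so their RNA in a mixed population follows how many cells are at this stage as well as how much RNA each of them holds. In these bulk libraries fewer cells of a type and less RNA per cell cannot be told apart.

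RNA came from mouse spinal cord cells at postnatal day 10, sorted for tdTomato red fluorescence and large forward scatter, and each library came from 1 mouse. RalAB cKO mice (RalAflox/flox and RalBflox/flox with CnpCre and Rosa26-StopFlox-TdTomato, 4 mice) were labelled as lacking both small GTPases RalA and RalB, which bind the exocyst, a tether of secretory vesicles. RalA cKO mice (RalAflox/flox with CnpCre and Rosa26-StopFlox-TdTomato, 4 mice) were labelled as lacking RalA. Control mice (CnpCre with Rosa26-StopFlox-TdTomato, 4 mice) carried the same Cre and reporter with no floxed Ral allele listed, so all 12 mice carried CnpCre. The Cnp promoter is active in the oligodendrocyte lineage and in Schwann cells, and the cells are an enriched, not a pure, population per the labels.

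Libraries held 10.93 to 15.44 M estimated counts. Levels are given as CPM (counts per 1 M counts of a library, scaled by TMM) where a gene is compared between groups, and as TPM, which accounts for transcript length, where genes are compared with each other. Averages are means ± SD over the 4 mice of a group. Gene positions are those of GENCODE vM21 on GRCm38. Differences are log2 fold changes ± standard error from edgeR over 4 mice per group, called at an adjusted p under 0.05. Rala, the gene targeted in both mutants, differed from control by -0.39 ± 0.15 log2 (adjusted p = 0.0832) in RalAB cKO and -0.31 ± 0.15 log2 (adjusted p = 0.236) in RalA cKO, and Ralb by -0.28 ± 0.15 log2 (adjusted p = 0.216) in RalAB cKO and -0.32 ± 0.15 log2 (adjusted p = 0.229) in RalA cKO, where it is not labelled as deleted. Ralb averaged 15.8 ± 1.32 CPM in RalAB cKO, 15.4 ± 2.35 in RalA cKO and 19.2 ± 3.38 in control, and the mutants differed by 0.035 ± 0.15 log2 (adjusted p = 0.936). The gene counts therefore did not show the labelled deletions, the labels do not say which exons are removed, and the group names below are those of the labels. Genes for myelin proteins held 11.2% to 12.4% of counts in RalAB cKO libraries, 11.9% to 12.9% in RalA cKO and 11.3% to 13.3% in control, as cells that make myelin would hold. The 12 microglial markers looked at held 0.129% to 0.205% of counts in RalAB cKO, 0.0170% to 0.0301% in RalA cKO and 0.0268% to 0.0648% in control. Astrocyte markers held 0.0295% to 0.0392%, 0.0364% to 0.0565% and 0.0426% to 0.0814% in the same order of groups. No marker on the microglia, astrocyte or neuron list was at 0 in a whole group, and the part of other cells in the results below was not tested.

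The proximal promoters shown place some of the genes that the results turn on. They are those with the smallest p in each of the 3 comparisons among the members with a single window in the sequence table, with a further called member that held both motifs looked for. Between the mutants Frmd4a, which has 4 windows, and Cemip2, which was not matched, had a smaller p than Tns3, and Tns3 is shown. Sequences are from RefSeq on GRCm38.p6, from 250 bases before to 50 bases after the annotated start, each read 5′ to 3′ along the gene's strand. Capitals mark CTTTGT (or ACAAAG on the other strand), a core bound by SOX factors such as the lineage regulator Sox10, and CAGCTG, which reads the same on both strands and is an E-box of the kind bound by Olig and other helix-loop-helix factors. Cyfip2 lies at chr11:46312309-46312608 on the minus strand, Bmp4 at chr14:46390620-46390919 on the minus strand, Tns3 at chr11:8664486-8664785 on the minus strand and Cnksr3 at chr10:7212188-7212487 on the minus strand.
Cyfip2: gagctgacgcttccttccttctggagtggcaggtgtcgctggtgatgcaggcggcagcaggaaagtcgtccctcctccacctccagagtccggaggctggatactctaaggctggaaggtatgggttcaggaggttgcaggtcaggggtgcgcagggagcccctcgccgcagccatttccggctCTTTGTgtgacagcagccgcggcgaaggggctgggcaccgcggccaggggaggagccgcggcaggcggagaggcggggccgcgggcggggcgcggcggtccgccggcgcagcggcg
Bmp4: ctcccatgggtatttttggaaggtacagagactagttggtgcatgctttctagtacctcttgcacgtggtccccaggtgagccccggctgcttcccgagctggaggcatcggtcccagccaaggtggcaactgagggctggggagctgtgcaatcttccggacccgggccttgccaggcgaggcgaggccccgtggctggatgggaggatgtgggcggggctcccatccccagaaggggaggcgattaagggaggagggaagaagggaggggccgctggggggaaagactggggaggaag
Tns3: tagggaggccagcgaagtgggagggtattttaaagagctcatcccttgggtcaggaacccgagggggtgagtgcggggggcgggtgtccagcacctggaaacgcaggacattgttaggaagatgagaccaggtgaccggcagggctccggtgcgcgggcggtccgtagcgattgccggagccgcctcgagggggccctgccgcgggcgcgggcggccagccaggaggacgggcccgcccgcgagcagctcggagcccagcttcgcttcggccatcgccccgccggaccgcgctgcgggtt
Cnksr3: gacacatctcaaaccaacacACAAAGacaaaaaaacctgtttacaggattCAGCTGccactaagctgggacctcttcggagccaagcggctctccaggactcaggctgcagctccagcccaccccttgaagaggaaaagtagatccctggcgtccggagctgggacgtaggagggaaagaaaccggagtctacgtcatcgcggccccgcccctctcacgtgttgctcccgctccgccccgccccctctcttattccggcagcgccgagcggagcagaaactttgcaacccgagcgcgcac
The RefSeq start of Cyfip2 (46312358) lies 501 bases inside the GENCODE gene given below, and those of the other 3 match it. The Cyfip2 window held 1 SOX-type match, 66 bases before the RefSeq start, and the Cnksr3 window held 1 match of each kind, which did not overlap. Neither the Bmp4 nor the Tns3 window held a match, which says only that these letters are not in these windows. Promoters were matched for 23 of the 30 genes. The SOX-type letters occurred in 5 of these 23 (Casr, Chn2, Cnksr3, Cyfip2 and Frmd4a) and in 18.71% of 32851 promoters of the same length. The E-box occurred in 3 of 23 (Chn2, Cnksr3 and Plekha1) and in 16.3% of all promoters. The shares over all promoters count single windows, while the 23 are genes, some with several windows. Of the 31 windows of these genes 6 held the SOX-type letters and 4 the E-box. Of the 4 Frmd4a windows 1 held the SOX-type letters. These matches are a description of sequence and do not show that a site is used.

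All 30 genes were abundant. Together they summed to 10422 ± 373 TPM in RalAB cKO, 8359 ± 244 TPM in RalA cKO and 10116 ± 756 TPM in control (SD, n = 4 each), and the 5 highest genes made up 51.6% of the control sum. TPM is not scaled by TMM, so differences between groups in TPM can hold a shift shared by all genes. For counts, leaving out TMM moved the median log2 fold change of all genes by -0.12 in RalA cKO against control. Bcas1, a marker of oligodendrocytes that are starting to myelinate, was the highest at 1755 ± 144 TPM in RalAB cKO, 1311 ± 137 TPM in RalA cKO and 1644 ± 234 TPM in control. On TMM-scaled counts Bcas1 differed from control by 0.26 log2 in RalAB cKO and -0.073 log2 in RalA cKO, neither of them called. In control Bcas1 was followed by Fyn at 1162 ± 274 TPM, Tmem141 at 1018 ± 179 TPM and Gpr17 at 852 ± 173 TPM, with overlapping libraries. The lowest was Casr at 35.5 ± 2.72 TPM in RalAB cKO, 30.4 ± 4.41 TPM in RalA cKO and 49.8 ± 7.07 TPM in control, next to Man1a at 53.9 ± 11.2 TPM and Sema5a at 54.5 ± 5.16 TPM in control, again within the spread. Short transcripts weigh heavily on this scale. A 480-base Enpp6 transcript with a retained intron held 32.9% of the gene's TPM in RalAB cKO, 31.1% in RalA cKO and 36.1% in control, with on average only 398, 262 and 411 estimated counts.

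**Figure D1:**
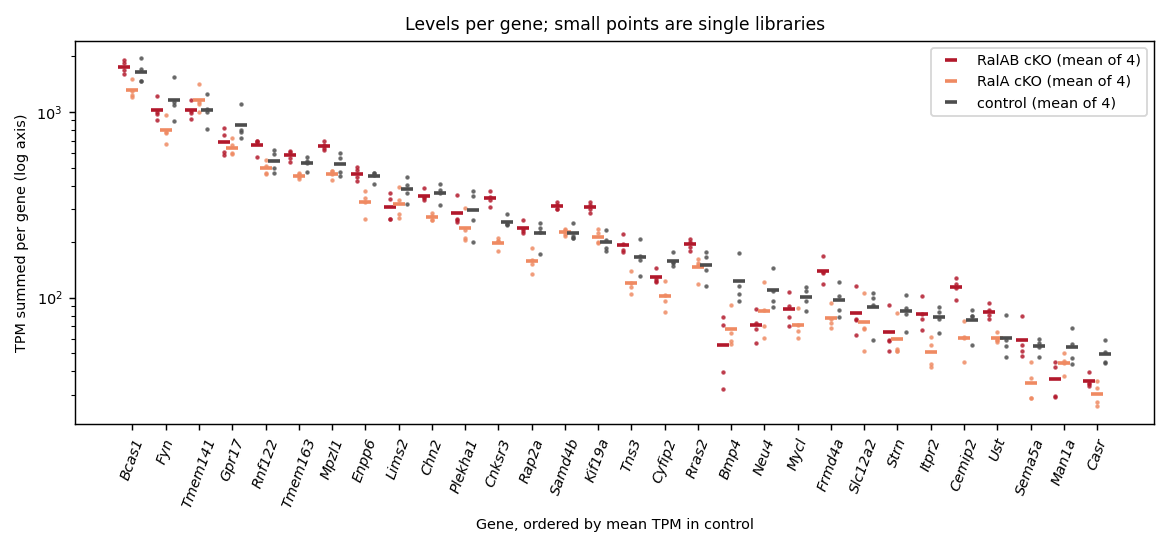
TPM per gene on a log axis, with RalAB cKO, RalA cKO and control side by side for each of the 30 genes, small points for single libraries and dashes for the mean of 4 mice. Levels ran from Bcas1 at 1644 TPM to Casr at 49.8 TPM in control.

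As a share of all counts, the 30 genes held 1.72% ± 0.0825 in RalAB cKO, 1.34% ± 0.0528 in RalA cKO and 1.61% ± 0.153 in control (SD, n = 4 each). The RalA cKO libraries, at 1.28% to 1.40%, lay below all others, and RalAB cKO (1.64% to 1.84%) overlapped control (1.45% to 1.81%). These shares are not scaled by TMM either. With TMM, the mean log2 CPM over the 30 genes ran from 8.67 to 8.69 in RalAB cKO, 8.34 to 8.42 in RalA cKO and 8.43 to 8.60 in control. The mean level was highest in RalAB cKO for 20 of the 30 genes, in control for 8 and in RalA cKO for 2. The most frequent order, in 15 genes, was RalAB cKO above control above RalA cKO. Between the mice of a group the median coefficient of variation over genes was 8.64% in RalAB cKO, 11.5% in RalA cKO and 14.3% in control. Single genes reached 21.8%, 26.0% and 23.5% in the same order.

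**Figure D2:**
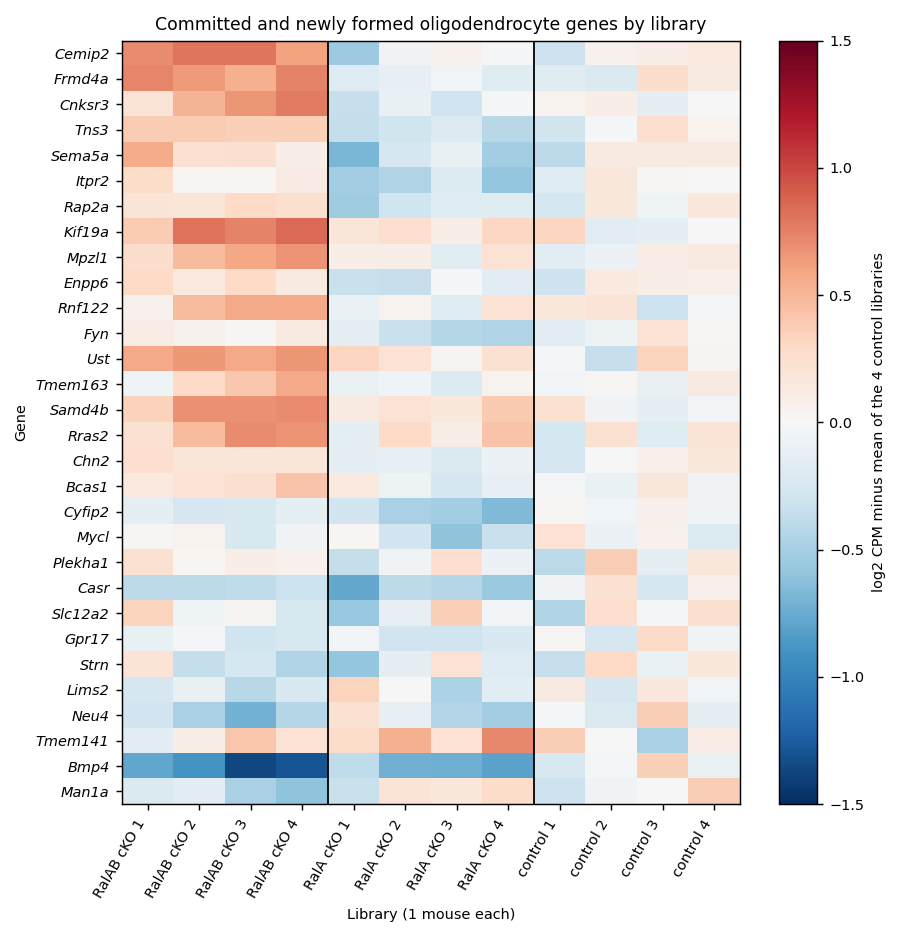
Log2 CPM of each gene in each of the 12 libraries, relative to the mean of the 4 control libraries, with genes ordered by the difference between RalAB cKO and RalA cKO. Red blocks for Cemip2, Frmd4a, Kif19a, Ust and Samd4b span all 4 RalAB cKO libraries, and Bmp4 is blue in all 8 mutant libraries.

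RalA cKO against control asks what the labelled loss of RalA alone does. Of the 30 genes 4 fell and 0 rose, and the median log2 difference over the set was -0.15, beside -0.02 over all tested genes. Over all 13456 genes 2.78% were called, 1.71% higher and 1.07% lower. In RalA cKO 23 of the 30 genes had a fold change below 0, beside 52.5% of all genes. The 4 that fell were Cyfip2, Casr, Bmp4 and Itpr2, and these were also the 4 whose libraries did not overlap, beside 11.4% of all genes without overlap, 5.64% higher and 5.77% lower. With summed Y-linked expression as a covariate (the labels give no sex), none of the 4 was called (adjusted p = 0.0594 to 0.164). Calls over all 13456 genes were then 93, beside 374 without the covariate. The log2 fold changes were then -0.48 for Cyfip2, -0.56 for Casr and -0.42 for Itpr2, beside -0.48 log2, -0.54 log2 and -0.44 log2 without the covariate. That of Bmp4 was -0.46, beside -0.67 log2.

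RalAB cKO against control asks what the labelled loss of both proteins does. Here 10 of the 30 genes rose and 3 fell, beside 18.4% of all tested genes called, 9.39% higher and 9.02% lower. The genes that rose were Cemip2, Kif19a, Frmd4a, Samd4b, Ust, Cnksr3, Rras2, Mpzl1, Rnf122 and Tns3, and Bmp4, Neu4 and Casr fell. The median over the set was 0.20, beside -0.01 over all genes, and 9 of 30 had a fold change below 0, beside 51.1% of all genes. Libraries did not overlap for 10 genes that were higher and 4 that were lower, beside 19.2% of all genes without overlap, 9.88% higher and 9.34% lower.

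RalAB cKO against RalA cKO asks what is added when RalB is labelled as lost too. Of the 30 genes 15 rose and 0 fell, beside 11.5% of all tested genes called, 7.03% higher and 4.5% lower. They were Cemip2, Frmd4a, Cnksr3, Tns3, Sema5a, Itpr2, Rap2a, Kif19a, Mpzl1, Enpp6, Fyn, Ust, Tmem163, Samd4b and Chn2. Of these, Sema5a, Itpr2, Rap2a, Enpp6, Fyn, Tmem163 and Chn2 were not called in RalAB cKO against control. They differed from control by 0.076 to 0.32 log2 in RalAB cKO and by -0.44 to -0.078 log2 in RalA cKO, where Itpr2 alone was called. The median over the 30 genes was 0.36, beside -0.03 over all genes, and 6 of 30 were below 0, beside 53.8% of all genes. Libraries of 15 genes were higher without overlap and of 0 lower, beside 17.3% of all genes, 9.65% higher and 7.63% lower. Each pair of comparisons shares 4 libraries, so these counts are not independent of each other. Where settings that ended a call are listed for a gene below, a fit with mouse number as a block is left out and given in the closing section. The loss of all RalA cKO calls with the Y-linked covariate, given above, is not repeated there.

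**Figure D3:**
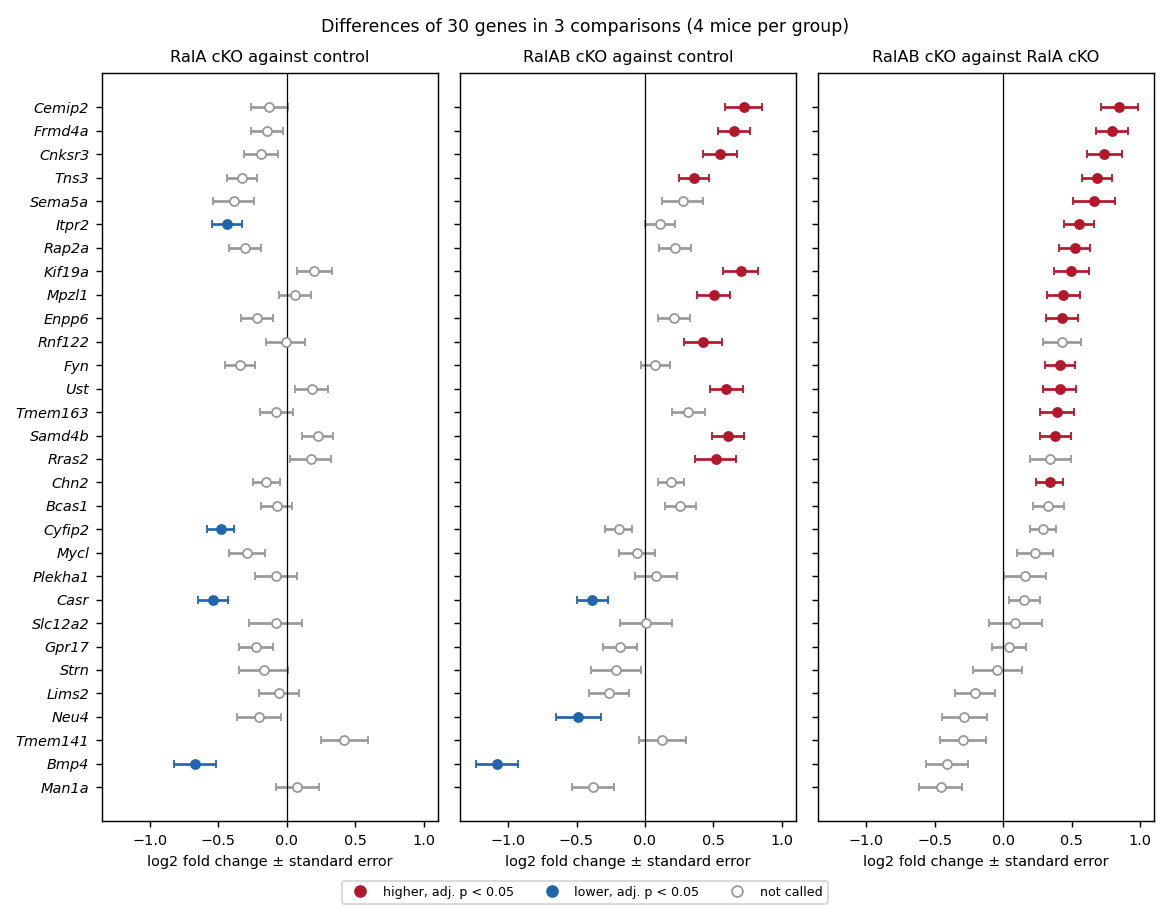
Log2 fold change ± standard error of each gene in the comparisons of RalA cKO with control, RalAB cKO with control and RalAB cKO with RalA cKO (4 mice per group), with filled points for genes called at an adjusted p under 0.05. The called genes number 4, 13 and 15 in the 3 panels, and Bmp4 at -1.08 in RalAB cKO is the farthest from 0.

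Among the 5 secreted and surface signalling genes, Bmp4 moved most. It encodes a secreted ligand of the TGF-beta superfamily that holds back oligodendrocyte maturation when it is supplied to precursors. Bmp4 (chr14:46383520-46390669, minus strand) had 52.3, 48.5, 35.1 and 36.9 CPM in RalAB cKO libraries 1 to 4, 69.0, 54.7, 54.1 and 51.6 CPM in RalA cKO, set against 76.2, 88.7, 116 and 84.4 CPM in control. Every library of both mutants lay below every control library, and the mutants overlapped each other. It fell by 1.08 ± 0.16 log2 (adjusted p = 0.000231) in RalAB cKO and fell by 0.67 ± 0.15 log2 (adjusted p = 0.0288) in RalA cKO, and the mutants differed by -0.41 ± 0.15 log2 (adjusted p = 0.111). The call in RalA cKO ended without RalA cKO 2, 3 and 4 or control 2, 3 and 4 in turn (log2 -0.69 to -0.54, adjusted p = 0.0539 to 0.118) and with transcript length offsets (log2 -0.65, adjusted p = 0.125), while that in RalAB cKO was made in each of the 12 runs that left out a library.

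Casr encodes the calcium-sensing receptor, a G protein-coupled receptor for extracellular calcium. It lies at chr16:36493696-36562141 (minus strand) and had 96.3, 95.1, 97.0 and 100.5 CPM in RalAB cKO libraries 1 to 4, 74.0, 95.7, 94.0 and 85.6 CPM in RalA cKO, set against 122, 147, 106 and 133 CPM in control. The 4 RalAB cKO mice were nearly equal, and all 8 mutant libraries lay below the lowest control. Casr fell by 0.39 ± 0.11 log2 (adjusted p = 0.0245) in RalAB cKO and fell by 0.54 ± 0.11 log2 (adjusted p = 0.0186) in RalA cKO, with 0.15 ± 0.11 log2 (adjusted p = 0.464) between the mutants. The RalA cKO call ended without RalA cKO 4 or control 2 and 4 in turn (log2 -0.53 to -0.46, adjusted p = 0.0554 to 0.0853), and the RalAB cKO call without RalAB cKO 2, 3 and 4 or control 2 and 4 in turn (log2 -0.40 to -0.31, adjusted p = 0.0508 to 0.0962) and with transcript length offsets (log2 -0.37, adjusted p = 0.0549).

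Mpzl1 encodes an immunoglobulin-domain surface receptor that binds the phosphatase SHP2. It lies at chr1:165592240-165634538 (minus strand) and had 769, 888, 956 and 1024 CPM in RalAB cKO libraries 1 to 4, 688, 683, 567 and 741 CPM in RalA cKO, set against 573, 601, 689 and 708 CPM in control. All RalAB cKO libraries were above all others, and RalA cKO overlapped control. Mpzl1 rose by 0.50 ± 0.12 log2 (adjusted p = 0.00808) against control and 0.44 ± 0.12 log2 (adjusted p = 0.0221) against RalA cKO, and RalA cKO differed from control by 0.060 ± 0.12 log2 (adjusted p = 0.79). The call between the mutants ended without RalAB cKO 3 and 4 or RalA cKO 2 and 3 in turn (log2 0.37 to 0.45, adjusted p = 0.0593 to 0.0864).

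Sema5a encodes a transmembrane semaphorin that guides axons. It lies at chr15:32244810-32696341 (plus strand) and had 486, 385, 389.8 and 352 CPM in RalAB cKO libraries 1 to 4, 205, 277, 305 and 230.2 CPM in RalA cKO, set against 250.3, 361, 361 and 361 CPM in control. Control 1 stood apart below the other controls, which were nearly equal, and RalAB cKO exceeded every RalA cKO library. The rise between the mutants was 0.66 ± 0.15 log2 (adjusted p = 0.00714). Against control the differences of 0.27 ± 0.15 log2 (adjusted p = 0.218) in RalAB cKO and -0.39 ± 0.15 log2 (adjusted p = 0.144) in RalA cKO did not pass.

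Gpr17, an orphan receptor that is turned on in committed precursors and must be turned off for maturation, was the most abundant of this group and was not called. It had 2381, 2515, 2078 and 2165 CPM in RalAB cKO libraries 1 to 4, 2488, 2104, 2091 and 2191 CPM in RalA cKO, set against 2600.2, 2148, 3141 and 2469 CPM in control. The 3 groups overlapped, with control 3 the highest library and control 2 within the range of both mutants. Gpr17 differed by -0.18 log2 in RalAB cKO, -0.22 log2 in RalA cKO and 0.043 log2 between the mutants.

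**Figure D4:**
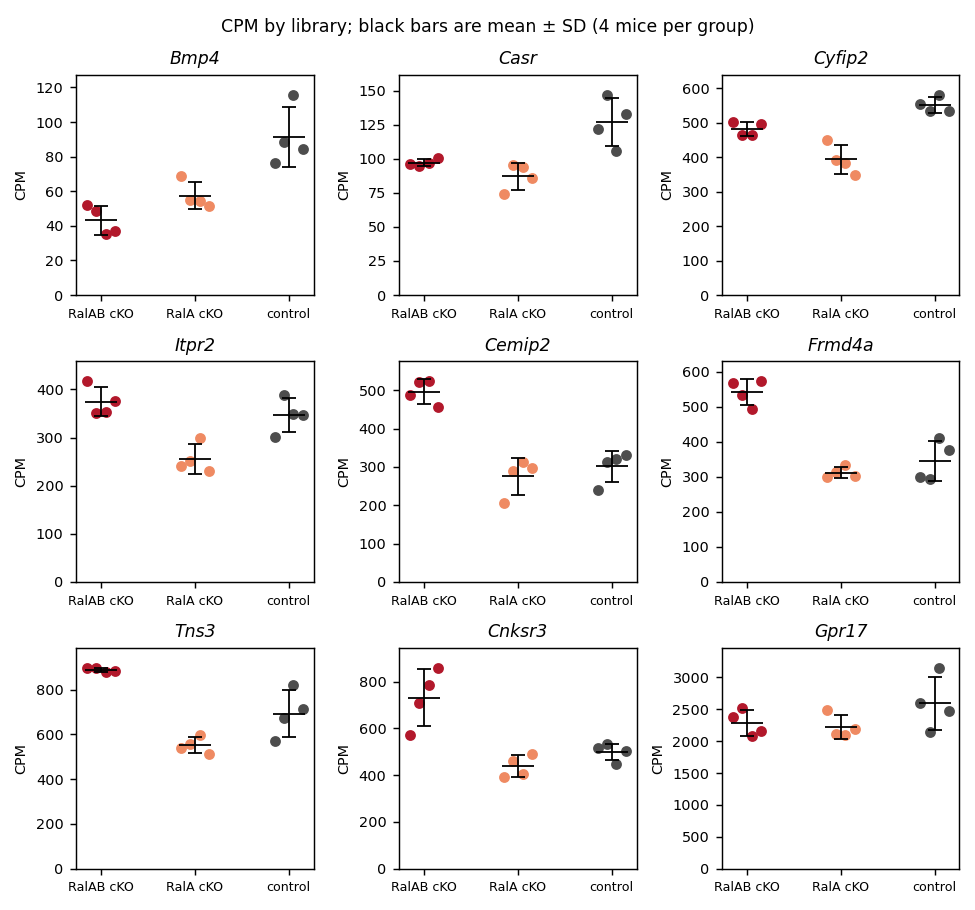
CPM in each library of Bmp4, Casr, Cyfip2, Itpr2, Cemip2, Frmd4a, Tns3, Cnksr3 and Gpr17, with RalAB cKO, RalA cKO and control from left to right and black bars for the mean ± SD of 4 mice. Bmp4 and Casr are lower in both mutants, Cemip2, Frmd4a and Cnksr3 are higher in RalAB cKO than in both other groups, and the groups overlap for Gpr17.

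Among the 8 genes for adhesion, matrix and glycan enzymes, Cemip2 showed the largest rise. It encodes a transmembrane protein described as a cell-surface hyaluronidase. Cemip2 (chr19:21778342-21858360, plus strand) had 487, 521, 523 and 455 CPM in RalAB cKO libraries 1 to 4, 205, 289, 313 and 297 CPM in RalA cKO, set against 241, 313, 321 and 331 CPM in control. All 4 RalAB cKO libraries were far above the other 8, and RalA cKO overlapped control, each of these groups with mouse 1 lowest. It rose by 0.72 ± 0.13 log2 (adjusted p = 0.00161) against control and 0.85 ± 0.13 log2 (adjusted p = 0.000413) against RalA cKO, and RalA cKO differed from control by -0.13 ± 0.13 log2 (adjusted p = 0.586).

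Tns3 encodes a tensin, a protein that links integrins to actin and marks immature oligodendrocytes in mouse. It lies at chr11:8431652-8664535 (minus strand) and had 895, 894, 879 and 884 CPM in RalAB cKO libraries 1 to 4, 538, 559, 596 and 514 CPM in RalA cKO, set against 569, 673, 818 and 711 CPM in control. RalAB cKO mice were almost equal and above all others, and RalA cKO libraries lay mostly below control, overlapping only with control 1. Tns3 rose by 0.69 ± 0.11 log2 (adjusted p = 0.000425) against RalA cKO and 0.36 ± 0.11 log2 (adjusted p = 0.0311) against control, and differed by -0.33 ± 0.11 log2 (adjusted p = 0.0979) in RalA cKO against control. The call against control ended without RalAB cKO 2, 3 and 4 or control 1 and 2 in turn (log2 0.27 to 0.36, adjusted p = 0.0641 to 0.073) and with library totals alone, no count filter or the 2 groups alone (log2 0.26 to 0.36, adjusted p = 0.0591 to 0.153).

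Ust encodes a sulfotransferase that modifies chondroitin and dermatan sulfate. It lies at chr10:8204756-8518825 (minus strand) and had 220.3, 233, 220.02 and 234 CPM in RalAB cKO libraries 1 to 4, 185, 172, 152 and 173 CPM in RalA cKO, set against 146, 116, 187 and 152 CPM in control. RalAB cKO was above every other library, and RalA cKO lay within the wide control range. Ust rose by 0.59 ± 0.12 log2 (adjusted p = 0.00315) against control and 0.41 ± 0.12 log2 (adjusted p = 0.0353) against RalA cKO, with 0.18 ± 0.12 log2 (adjusted p = 0.38) in RalA cKO. The call between the mutants ended without RalAB cKO 2, 3 and 4 or RalA cKO 2, 3 and 4 in turn (log2 0.36 to 0.43, adjusted p = 0.0653 to 0.0914) and with the Y-linked covariate (log2 0.35, adjusted p = 0.109).

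Enpp6, a choline phosphodiesterase whose RNA marks oligodendrocytes in the act of differentiating, lies at chr8:46986887-47096762 (plus strand) and had 746, 673, 744 and 668 CPM in RalAB cKO libraries 1 to 4, 479.6, 476, 597 and 545 CPM in RalA cKO, set against 487, 673, 642 and 639.8 CPM in control. RalA cKO was below RalAB cKO in every pair of libraries, and control 1 lay with RalA cKO while the other controls lay above RalA cKO and reached RalAB cKO through control 2. The rise between the mutants was 0.43 ± 0.12 log2 (adjusted p = 0.0225), with 0.21 ± 0.12 log2 (adjusted p = 0.222) in RalAB cKO and -0.22 ± 0.12 log2 (adjusted p = 0.272) in RalA cKO against control. The call ended without RalAB cKO 3 or RalA cKO 1 and 2 in turn (log2 0.39 to 0.41, adjusted p = 0.0681 to 0.0909) and with the Y-linked covariate (log2 0.41, adjusted p = 0.0597).

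Neu4, a sialidase that removes sialic acid from glycans, averaged 126 ± 15.1 CPM in RalAB cKO, 153 ± 37.7 in RalA cKO and 176 ± 33.3 in control. In RalAB cKO against control it fell by 0.49 ± 0.16 log2 (adjusted p = 0.049), at the edge of the threshold, and the call ended without RalAB cKO 2, 3 and 4, RalA cKO 2 or control 1, 2, 3 and 4 in turn (log2 -0.55 to -0.36, adjusted p = 0.0508 to 0.156) and with DESeq2 size factors, library totals alone, limma-voom, transcript length offsets, the Y-linked covariate or control 1 and RalAB cKO 1 both left out (log2 -0.58 to -0.47, adjusted p = 0.052 to 0.0815). The other members of the group were not called. Bcas1 averaged 2162 ± 183 CPM in RalAB cKO, 1719 ± 201 in RalA cKO and 1808 ± 157 in control, with differences of 0.26 log2 in RalAB cKO, -0.073 log2 in RalA cKO and 0.33 log2 between the mutants. Man1a, a Golgi mannosidase, averaged 82.9 ± 11.7 CPM in RalAB cKO, 114 ± 20.1 in RalA cKO and 108 ± 21.4 in control and differed by -0.38 log2, 0.076 log2 and -0.46 log2 in the same order. Lims2, an adaptor at integrin adhesions, averaged 179.8 ± 15.4 CPM in RalAB cKO, 207 ± 48.9 in RalA cKO and 215 ± 27.6 in control and differed by -0.26 log2, -0.059 log2 and -0.20 log2. Lims2 shares 188 exonic bases on the opposite strand with the far more abundant Gpr17, and a strand setting of the quantification is not stated in the labels, so its values are uncertain.

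Among the 10 small GTPases, kinases and regulators of the cytoskeleton, 1 fell in RalA cKO, 4 rose in RalAB cKO against control and 6 rose against RalA cKO, beside 1.07% of all genes called lower, 9.39% higher and 7.03% higher in these comparisons. Frmd4a encodes a FERM-domain scaffold of cell polarity. It lies at chr2:4017717-4614043 (plus strand) and had 569, 532, 492 and 572 CPM in RalAB cKO libraries 1 to 4, 298, 315, 332 and 302 CPM in RalA cKO, set against 299.97, 293, 409.8 and 376 CPM in control. All RalAB cKO libraries were above all others, and the RalA cKO mice, close together, lay within the control range. Frmd4a rose by 0.80 ± 0.11 log2 (adjusted p = 0.000197) against RalA cKO and 0.65 ± 0.11 log2 (adjusted p = 0.00107) against control, with -0.15 ± 0.11 log2 (adjusted p = 0.459) in RalA cKO.

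Cnksr3, a scaffold protein of the CNK family, lies at chr10:7119063-7212237 (minus strand) and had 573, 709.8, 786 and 857 CPM in RalAB cKO libraries 1 to 4, 392, 461, 406 and 492 CPM in RalA cKO, set against 516, 532, 449 and 502 CPM in control. RalAB cKO was above every other library with mouse 1 the lowest of its group, and RalA cKO overlapped control. It rose by 0.74 ± 0.12 log2 (adjusted p = 0.000706) against RalA cKO and 0.55 ± 0.12 log2 (adjusted p = 0.00602) against control, with -0.19 ± 0.12 log2 (adjusted p = 0.37) in RalA cKO.

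Kif19a, a kinesin motor known from mouse cilia, lies at chr11:114765388-114790739 (plus strand) and had 389, 526, 501 and 540.3 CPM in RalAB cKO libraries 1 to 4, 338, 356, 320.4 and 372 CPM in RalA cKO, set against 372, 265, 272 and 297 CPM in control. RalAB cKO was above all others, by a small margin in mouse 1, and control 1 lay above the other controls. Kif19a rose by 0.70 ± 0.13 log2 (adjusted p = 0.00141) against control and 0.50 ± 0.13 log2 (adjusted p = 0.016) against RalA cKO, with 0.20 ± 0.13 log2 (adjusted p = 0.352) in RalA cKO. The call between the mutants ended without RalAB cKO 2 and 4 in turn (log2 0.45 to 0.46, adjusted p = 0.0567 to 0.0616).

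Cyfip2, a subunit of the WAVE complex through which Rac starts branched actin, lies at chr11:46193850-46312859 (minus strand) and had 504, 463, 465 and 497 CPM in RalAB cKO libraries 1 to 4, 451, 392, 384 and 349 CPM in RalA cKO, set against 556, 534, 582 and 533 CPM in control. RalA cKO was lowest, RalAB cKO lay between it and control, and the 3 groups did not overlap. Cyfip2 fell by 0.48 ± 0.10 log2 (adjusted p = 0.0158) in RalA cKO, and differed by -0.19 ± 0.10 log2 (adjusted p = 0.181) in RalAB cKO and 0.29 ± 0.10 log2 (adjusted p = 0.0641) between the mutants. The RalA cKO call ended without RalA cKO 2 and 4 or control 2 in turn (log2 -0.49 to -0.43, adjusted p = 0.0509 to 0.0707).

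Rap2a, a Ras-family GTPase, lies at chr14:120478444-120507194 (plus strand) and had 622, 619, 672 and 647 CPM in RalAB cKO libraries 1 to 4, 376, 443, 482 and 481 CPM in RalA cKO, set against 457, 612, 522 and 612 CPM in control. RalAB cKO was above all other libraries, narrowly so against control 2 and 4, and RalA cKO overlapped control. It rose by 0.52 ± 0.11 log2 (adjusted p = 0.00595) between the mutants, and differed from control by 0.22 ± 0.11 log2 (adjusted p = 0.204) in RalAB cKO and -0.31 ± 0.11 log2 (adjusted p = 0.136) in RalA cKO.

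Fyn, the Src-family kinase, lies at chr10:39368855-39565381 (plus strand) and had 1230.1, 1196, 1156 and 1254 CPM in RalAB cKO libraries 1 to 4, 1034, 907, 845 and 837 CPM in RalA cKO, set against 1016, 1084, 1329 and 1159 CPM in control. RalAB cKO was above every RalA cKO library and within the control range. Fyn rose by 0.42 ± 0.11 log2 (adjusted p = 0.0178) between the mutants, and differed from control by 0.076 ± 0.11 log2 (adjusted p = 0.683) in RalAB cKO and -0.34 ± 0.11 log2 (adjusted p = 0.0871) in RalA cKO. The call ended without RalAB cKO 4 or RalA cKO 2, 3 and 4 in turn (log2 0.38 to 0.42, adjusted p = 0.0512 to 0.0629) and with transcript length offsets or the Y-linked covariate (log2 0.30 to 0.36, adjusted p = 0.0618 to 0.201).

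Rras2, a Ras-family GTPase, averaged 285 ± 42.2 CPM in RalAB cKO, 225 ± 37.5 in RalA cKO and 199 ± 34.9 in control and rose by 0.52 ± 0.15 log2 (adjusted p = 0.0243) in RalAB cKO against control. That call ended without RalAB cKO 3 and 4 or control 1 and 3 in turn (log2 0.44 to 0.47, adjusted p = 0.0605 to 0.0811). Chn2, which encodes a chimaerin that inactivates Rac, averaged 373 ± 9.37 CPM in RalAB cKO, 295 ± 11.8 in RalA cKO and 327 ± 39.4 in control and rose by 0.34 ± 0.10 log2 (adjusted p = 0.032) between the mutants, a call that ended without RalAB cKO 1, 2, 3 and 4 or RalA cKO 1, 2, 3 and 4 in turn (log2 0.31 to 0.36, adjusted p = 0.056 to 0.0814) and with no count filter or the Y-linked covariate (log2 0.27 to 0.34, adjusted p = 0.0911 to 0.114). Strn, a scaffold of the phosphatase PP2A, and Plekha1, a phosphoinositide-binding adaptor, were not called. Strn averaged 256 ± 55.7 CPM in RalAB cKO, 264 ± 58.9 in RalA cKO and 297 ± 57.6 in control and differed by -0.21 log2 in RalAB cKO, -0.17 log2 in RalA cKO and -0.042 log2 between the mutants. Plekha1 averaged 503 ± 32.1 CPM in RalAB cKO, 451 ± 78.5 in RalA cKO and 476 ± 109.8 in control and differed by 0.080 log2, -0.077 log2 and 0.16 log2 in the same order.

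Among the 5 genes for ion transport, calcium and other membrane proteins, Itpr2 was the only one called in RalA cKO against control. It encodes a channel that releases calcium from the endoplasmic reticulum on binding inositol trisphosphate. Itpr2 (chr6:146108299-146502223, minus strand) had 417, 351, 354 and 376 CPM in RalAB cKO libraries 1 to 4, 240.2, 252, 299 and 230.4 CPM in RalA cKO, set against 302, 389, 348 and 347 CPM in control. Every RalA cKO library lay below every other library, the nearest being control 1, and RalAB cKO overlapped control. It fell by 0.44 ± 0.11 log2 (adjusted p = 0.0436) in RalA cKO, differed by 0.11 ± 0.11 log2 (adjusted p = 0.53) in RalAB cKO against control and rose by 0.55 ± 0.11 log2 (adjusted p = 0.00287) between the mutants. The RalA cKO call ended without RalAB cKO 2, 3 and 4, RalA cKO 1, 2 and 4 or control 2, 3 and 4 in turn (log2 -0.45 to -0.37, adjusted p = 0.0599 to 0.156) and with the 2 groups alone or transcript length offsets (log2 -0.44 to -0.43, adjusted p = 0.0625 to 0.0678), while the call between the mutants was made in all 12 runs that left out a library.

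Tmem163, a zinc transporter, averaged 637 ± 111 CPM in RalAB cKO, 485 ± 34.9 in RalA cKO and 512 ± 38.3 in control and rose by 0.39 ± 0.12 log2 (adjusted p = 0.0468) between the mutants, a call that ended without RalAB cKO 2, 3 and 4, RalA cKO 1, 2, 3 and 4 or control 1, 2 and 4 in turn (log2 0.30 to 0.44, adjusted p = 0.0513 to 0.175) and with DESeq2 size factors, no count filter, limma-voom, the 2 groups alone or transcript length offsets (log2 0.31 to 0.40, adjusted p = 0.0502 to 0.117). Rnf122, a RING-finger ubiquitin ligase, averaged 823 ± 125 CPM in RalAB cKO, 610.3 ± 76.5 in RalA cKO and 614 ± 94.8 in control and rose by 0.42 ± 0.14 log2 (adjusted p = 0.047) in RalAB cKO against control, a call that ended without RalAB cKO 2, 3 and 4, RalA cKO 1 and 2 or control 2, 3 and 4 in turn (log2 0.31 to 0.48, adjusted p = 0.0524 to 0.139) and with the 2 groups alone or transcript length offsets (log2 0.41 to 0.42, adjusted p = 0.0632 to 0.0783). Slc12a2, the sodium-potassium-chloride cotransporter NKCC1, averaged 357 ± 60.9 CPM in RalAB cKO, 335 ± 87.3 in RalA cKO and 355 ± 75.7 in control and differed by 0.0067 log2 in RalAB cKO, -0.083 log2 in RalA cKO and 0.090 log2 between the mutants. Tmem141 averaged 356 ± 57.7 CPM in RalAB cKO, 436 ± 71.6 in RalA cKO and 326 ± 76.8 in control and differed by 0.13 log2, 0.42 log2 and -0.29 log2 in the same order. Neither was called.

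Samd4b, an RNA-binding repressor of the Smaug family, lies at chr7:28399522-28598144 (minus strand) and had 545, 687, 686 and 700.4 CPM in RalAB cKO libraries 1 to 4, 470.1, 498, 479 and 563 CPM in RalA cKO, set against 503, 413, 388 and 415 CPM in control. RalAB cKO was above every control library and overlapped RalA cKO through RalAB cKO 1 and RalA cKO 4. Samd4b rose by 0.61 ± 0.11 log2 (adjusted p = 0.00176) against control and 0.38 ± 0.11 log2 (adjusted p = 0.0384) against RalA cKO, with 0.22 ± 0.11 log2 (adjusted p = 0.25) in RalA cKO. The call between the mutants ended without RalAB cKO 2, 3 and 4, RalA cKO 1, 2 and 3 or control 2 and 4 in turn (log2 0.35 to 0.38, adjusted p = 0.0552 to 0.116) and with no count filter (log2 0.38, adjusted p = 0.0632). Mycl, a transcription factor of the Myc family, averaged 177 ± 14.8 CPM in RalAB cKO, 151 ± 27.4 in RalA cKO and 184 ± 23.7 in control, was not called, and differed by -0.059 log2 in RalAB cKO, -0.29 log2 in RalA cKO and 0.23 log2 between the mutants.

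Many members are quantified as several transcripts, whose shares of the gene's TPM were described and not tested. These shares, the TPM levels and the transcript length offsets rest on the deposited effective lengths. In RalAB cKO 1, the library looked at for this, 14022 of 121843 transcripts had an effective length above the annotated length. Gpr17 and Rap2a each had 1 transcript, and Cnksr3-201 held 99.8% of Cnksr3 TPM in RalAB cKO, 99.6% in RalA cKO and 99.9% in control. Bcas1-208 held 38.9% ± 1.72 of Bcas1 TPM in RalAB cKO, 40.3% ± 2.08 in RalA cKO and 33.8% ± 1.096 in control (SD, n = 4 each), and both mutants lay above the control range. Bmp4-202 held 53.3% ± 8.37 in RalAB cKO, 58.4% ± 4.16 in RalA cKO and 48.1% ± 5.30 in control, and Bmp4-201 24.3% ± 6.58, 20.2% ± 3.53 and 28.2% ± 2.42. Bmp4 counts were lower on both of these transcripts, with means of 343, 463 and 690 counts for Bmp4-202 and 202, 209 and 551 for Bmp4-201 in the same order of groups.

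Genes of neighbouring stages were looked at for comparison, on lists written from general knowledge. Their counts stand beside 18.4% of all genes called in RalAB cKO against control, 2.78% in RalA cKO against control and 11.5% between the mutants. Of 16 other newly formed oligodendrocyte genes 7 rose and 4 fell in RalAB cKO against control, 1 rose and 1 fell in RalA cKO, and 6 rose and 0 fell between the mutants. Prom1 rose by 1.26 ± 0.16 log2 (adjusted p = 0.000107) and Rasgef1b by 0.75 ± 0.10 log2 (adjusted p = 0.000157) in RalAB cKO against control. The 4 that fell in that comparison were Dll3 at -1.44 ± 0.32 log2 (adjusted p = 0.00582), Sox11 at -1.23 ± 0.37 log2 (adjusted p = 0.0293), Nkx2-2 at -0.59 ± 0.17 log2 (adjusted p = 0.023) and Zfp365 at -0.40 ± 0.10 log2 (adjusted p = 0.0135). Zfp365 also fell by 0.50 ± 0.10 log2 (adjusted p = 0.0188) in RalA cKO. Tcf7l2, a transcription factor of early differentiation, rose by 0.59 ± 0.14 log2 (adjusted p = 0.00844) between the mutants. Of 20 precursor genes 12 fell and 1 rose in RalAB cKO, 0 were called in RalA cKO and 4 fell between the mutants. Ncald fell by 1.00 ± 0.12 log2 (adjusted p = 6.38e-05) and Cspg5 fell by 1.59 ± 0.29 log2 (adjusted p = 0.00288) in RalAB cKO. The median log2 fold change from control was 0.20 over the 30 genes and -1.05 over the precursor list in RalAB cKO, and -0.15 and -0.53 in RalA cKO. Of the 9 members below 0 in RalAB cKO, Bmp4, Neu4 and Casr were called, 3 of 30 beside 9.02% of all genes called lower.

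Of 19 myelin protein genes 6 fell in RalAB cKO, 2 rose in RalA cKO and 7 fell between the mutants, with no call the other way. Opalin rose by 0.72 ± 0.13 log2 (adjusted p = 0.00948) in RalA cKO and Mal fell by 1.53 ± 0.18 log2 (adjusted p = 4.24e-05) in RalAB cKO. Of 20 mature oligodendrocyte genes 5 rose and 9 fell in RalAB cKO, 9 rose and 0 fell in RalA cKO, and 0 rose and 11 fell between the mutants. Apod fell by 1.57 ± 0.16 log2 (adjusted p = 1.76e-05) in RalAB cKO, while the ion channel gene Hcn2 rose by 1.24 ± 0.12 log2 (adjusted p = 1.14e-05) in RalAB cKO and 1.45 ± 0.12 log2 (adjusted p = 4.83e-06) in RalA cKO. Between the mutants 15 members rose where 11 mature genes and 7 myelin protein genes fell.

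**Figure D5:**
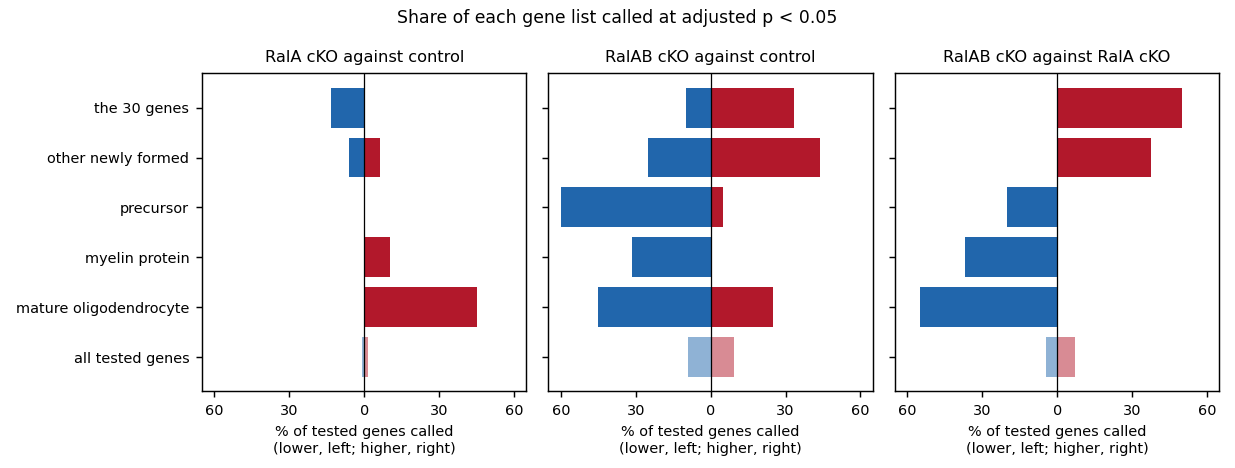
Percent of tested genes called lower (left, blue) and higher (right, red) in each comparison for the 30 genes, 16 other newly formed, 20 precursor, 19 myelin protein and 20 mature oligodendrocyte genes, and all 13456 tested genes. In RalAB cKO against RalA cKO the newly formed genes lie to the right (15 of 30 and 6 of 16 higher) and the precursor, myelin protein and mature genes to the left (4, 7 and 11 lower).

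Lists of partners of single members are read against the same shares. Of 18 tested BMP signalling genes other than Bmp4, 1 fell in RalA cKO, 1 rose and 2 fell in RalAB cKO, and 0 were called between the mutants. In RalAB cKO this stands beside 9.39% of all genes called higher and 9.02% lower. The ligand gene Bmp7 fell by 1.75 ± 0.25 log2 (adjusted p = 0.000209) in RalAB cKO and fell by 1.04 ± 0.24 log2 (adjusted p = 0.0303) in RalA cKO, at 2.92, 4.81 and 9.86 CPM in RalAB cKO, RalA cKO and control. The inhibitory Smad7 rose by 0.60 ± 0.15 log2 (adjusted p = 0.011) and Smad1 fell by 0.56 ± 0.18 log2 (adjusted p = 0.0374) in RalAB cKO. Of 13 Fyn partners 2 rose in RalAB cKO, 1 in RalA cKO and 3 between the mutants.

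The counts of the next 3 lists stand beside 9.39% of all genes called higher and 9.02% lower in RalAB cKO against control. In RalA cKO the shares were 1.71% higher and 1.07% lower, and between the mutants 7.03% and 4.5%. Of the 10 genes of the WAVE complex, which holds Cyfip2, 2 rose in RalAB cKO, 1 fell in RalA cKO and 3 rose between the mutants. Abi3 rose by 2.09 ± 0.26 log2 (adjusted p = 6.88e-05) and Nckap1l by 2.04 ± 0.31 log2 (adjusted p = 0.000496) in RalAB cKO, 2 genes of blood-lineage cells that moved with the microglial markers, of which 11 of 12 rose in that comparison. Wasf1 fell by 0.37 ± 0.10 log2 (adjusted p = 0.0492) in RalA cKO. Cyfip1, the paralogue of Cyfip2, rose by 0.54 ± 0.12 log2 (adjusted p = 0.00479) between the mutants. Of 8 tested Wnt feedback and target genes 1 rose and 2 fell in RalAB cKO, 0 were called in RalA cKO, and 2 rose and 1 fell between the mutants. Nkd1 fell by 0.94 ± 0.13 log2 (adjusted p = 0.000146) and Axin2 rose by 0.50 ± 0.13 log2 (adjusted p = 0.0191) between the mutants. Of 25 tested paralogues of members 4 rose and 8 fell in RalAB cKO, 1 rose in RalA cKO, and 2 rose and 3 fell between the mutants. Tns1, the paralogue of Tns3, rose by 0.99 ± 0.10 log2 (adjusted p = 1.38e-05) between the mutants, and Sema5b, the paralogue of Sema5a, fell by 1.60 ± 0.27 log2 (adjusted p = 0.00134) in RalAB cKO.

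Markers of other cells moved in RalAB cKO beside the members that rose there. All 12 microglial markers rose against RalA cKO and 11 of 12 against control, while 1 fell in RalA cKO against control. Of 10 astrocyte markers 7 fell in RalAB cKO against control, 3 fell against RalA cKO and 0 were called in RalA cKO. Of 11 tested neuron markers 4 fell and 1 rose in RalAB cKO against control, 0 were called in RalA cKO, and control 3 had the highest mean level at 4.10 on the log2 CPM scale. Their part in the differences of the 30 genes was not tested. In RalAB cKO libraries 1 to 4 the microglial markers held 0.129%, 0.147%, 0.199% and 0.205% of counts, and the 30 genes 1.84%, 1.70%, 1.64% and 1.72%. On the TMM-scaled log2 CPM scale the means over the 30 genes were 8.67, 8.69, 8.67 and 8.69. Whether these values go together over 4 mice was not tested.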

How the data were processed

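RNA of sorted spinal cord cells from 12 mice at postnatal day 10 was sequenced, with 4 mice per group and 1 library per mouse. Per the submitters' processing notes, Trimmomatic 0.36, kallisto 0.44 and GRCm38.p6 were used, with no role given for each. The deposited files hold estimated counts, TPM values and effective lengths of transcripts, computed by the authors. Per the labels, the mRNA library kit kept strand.

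Of 121843 transcripts 121104 had an identifier in GENCODE vM21, and the 739 others held 0.2185% to 0.2772% of counts. Estimated counts were summed over 35675 genes and rounded. edgeR 4.0.16 with a count filter (minimum 10, total 15) kept 13456 genes, scaled by TMM. A mean per group was fitted over all 12 libraries with robust quasi-likelihood F tests and Benjamini-Hochberg adjustment over all tested genes. Standard errors are absolute log2 fold changes over the root of F. The common biological coefficient of variation was 0.199. Deposited TPM values gave levels between genes and transcript shares, without a test. No pair of libraries of a group agreed within sampling noise (chi-square per degree of freedom of 9.09 to 39.5).

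The 30 genes, the comparison lists and the tests were chosen with earlier results of these data known, so agreement with those is no independent support. Members called in any comparison were given in full for the 16 with the smallest p, and the others by means. Up to 3 called genes of each comparison list with the smallest p were named. The 4 genes of the other newly formed list that fell in RalAB cKO against control were named besides. On simulated counts (200 genes changed, over 13288 to 13306 genes) 2-fold changes were recovered in 83%, 84% and 88%, and 1.5-fold changes in 37%, 45% and 37% for RalA cKO and RalAB cKO against control and the mutants against each other, in that order. False calls were 4%, 5.84% and 4.58% of calls. The changed genes were drawn at random from all genes above a low level, and fewer genes changed than were called in the data. These rates are therefore not estimates for the 30 genes. Alternatives were DESeq2 1.42.0 (size factors, and its test), limma-voom, unscaled library totals, a filter of 1 CPM in 4 libraries or none, the 2 groups alone, length offsets, a mouse-number block, a Y-linked covariate, nuclear protein-coding genes alone and each library left out. Leaving out control 1 and RalAB cKO 1 together was added after seeing the data.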

Additional observations from a re-analysis of the deposited data

Results flagged for a closer look

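In 90 groups of 4 libraries (30 genes in 3 groups), 5 held 1 library far from the other 3, and chance alone gives about 1 in 20 such groups. Sema5a was 250.26 CPM in control 1, below 360.75 to 361.05 CPM in the other controls. Enpp6 was 487.1 CPM in control 1, below 639.77 to 673.01 CPM, and Cemip2 was 240.76 CPM in control 1, below 313.38 to 330.8 CPM. Chn2 was 387.07 CPM in RalAB cKO 1, above 367.86 to 368.99 CPM in the other RalAB cKO mice, a gap of small absolute size. Samd4b was 544.68 CPM in RalAB cKO 1, below 686.27 to 700.35 CPM. All 5 values came from control 1 or RalAB cKO 1.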

How the results depend on the processing

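Each of the 30 genes had enough counts to be tested. Of the calls made, 0 of 4 in RalA cKO against control held in every alternative and every run that left out a library, against 8 of 13 in RalAB cKO against control and 7 of 15 between the mutants. The number called in RalA cKO was 2 with transcript length offsets, 0 with the Y-linked covariate and 11 without control 1 and RalAB cKO 1 together. Calls over all tested genes in these settings were 334 of 13456, 93 of 13456 and 1693 of 13502, beside 374 of 13456 in the main fit. With 1 library left out the number of members called in RalA cKO ran from 0 (without RalA cKO 4 or control 2) to 8 (without control 1), beside 8 to 14 in RalAB cKO against control and 8 to 16 between the mutants. Over all genes the calls in RalA cKO were 85 without RalA cKO 4, 103 without control 2 and 947 without control 1. They ran from 1605 to 3209 in RalAB cKO against control and from 1117 to 1678 between the mutants. The median log2 fold change in RalA cKO was -0.27 with library totals alone, a scaling that moved the median of all genes by -0.12, and the higher and lower calls over all genes were then 176 and 250, beside 230 and 144. In runs without 1 library the medians ran from -0.21 to -0.0820 in RalA cKO, 0.13 to 0.25 in RalAB cKO and 0.32 to 0.40 between the mutants.

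Correlations of deviations from the group means did not show mouse numbers 1 to 4 to pair the libraries. Of 12 same-number pairs 3 had a correlation over 0.1, and 2 of 12 libraries correlated best with their own number. With 4 libraries per group these values cannot settle whether mice of the same number were linked. With the number as a block 2 members were called in RalA cKO, 11 in RalAB cKO and 11 between the mutants. Calls over all 13456 genes were then 232, 2146 and 1343, beside 374, 2478 and 1551 without the block. It ended the calls of Bmp4 and Itpr2 in RalA cKO (edgeR adjusted p = 0.0519 and 0.0881) and of Neu4 and Rnf122 in RalAB cKO (0.0571 and 0.0639). Between the mutants it ended those of Chn2, Samd4b, Tmem163 and Ust (0.068, 0.0795, 0.0543 and 0.0708).

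Signs turned among members that were not called in that comparison, and the cause was not tested. For RalA cKO against control, library totals alone gave -0.0613 for Mpzl1 and -0.0432 for Man1a, length offsets -0.0865 for Man1a and 0.0619 for Rnf122, and the Y-linked covariate 0.0107 for Lims2 and 0.0262 for Slc12a2. Without control 1 and RalAB cKO 1 together these were -0.00695 for Man1a, 0.00393 for Lims2 and 0.0522 for Rnf122. For RalAB cKO against control, library totals gave -0.0168 for Fyn, -0.00601 for Plekha1 and -0.0737 for Slc12a2, length offsets -0.0450 for Fyn, and leaving out both libraries -0.0760 for Plekha1, -0.23 for Slc12a2 and 0.0114 for Mycl. Between the mutants, length offsets gave 0.0554 for Strn, the Y-linked covariate -0.0393 for Gpr17 and -0.00350 for Slc12a2, and leaving out both libraries -0.0309 for Slc12a2. With 1 library left out, values in RalA cKO ran from -0.21 to 0.0680 for Lims2, -0.0174 to 0.22 for Man1a, -0.20 to 0.0602 for Plekha1, -0.12 to 0.0567 for Rnf122 and -0.25 to 0.0556 for Slc12a2. In RalAB cKO they ran from -0.12 to 0.0189 for Mycl, -0.0403 to 0.21 for Plekha1, -0.13 to 0.0953 for Slc12a2 and -0.0280 to 0.26 for Tmem141, and between the mutants from -0.00734 to 0.10 for Gpr17, -0.0496 to 0.26 for Slc12a2 and -0.21 to 0.10 for Strn.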
